A study of Mus musculus with 16 samples.

Results

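The mitochondrial ribosomal protein genes are the nuclear genes for the proteins of the ribosome inside mitochondria. They were taken as all protein-coding genes of the mouse GRCm38 annotation whose symbol is Mrpl or Mrps followed by a number, with letters allowed after it. The rule gave 78 of the 55536 genes in the count table, 49 named Mrpl and 29 named Mrps, on 17 chromosomes. It left out 5 pseudogenes. By their place in the mammalian mitochondrial ribosome, 51 belong to the large subunit and 26 to the small one. Mrps18a and Mrps30 are named for the small subunit but sit in the large one, and Mrps36, now known as a part of the 2-oxoglutarate dehydrogenase complex, was placed in neither.

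RNA-seq was made from a mouse epithelial line of the inner medullary collecting duct, the last stretch of the kidney tubule, which came from a mouse with an inducible Pkd2 knockout. There were 16 libraries in 4 groups of 4: passage 7 with doxycycline (DOX), passage 7 without it, passage 4 with DOX and passage 4 without it. Cells of every group grew on permeable filters for 10 days, and the DOX groups had 2 ug/mL DOX for 6 of them. The sample titles call all cells Pkd2KO, while the genotype label reads Pkd2KO induced by DOX in the DOX groups and wild type in the others. The knockout and the drug thus always came together, and their effects cannot be told apart here. All groups come from 1 cell line, and no label says that replicates were cultured apart, so each p-value speaks of the variation among these libraries, which may be technical.

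Mitochondrial ribosomes translate the few proteins that mitochondrial DNA encodes, all of them core subunits of the respiratory chain and the ATP synthase. Their 2 ribosomal RNAs are made in the mitochondrion, and every protein of the ribosome is imported from the cytosol. Many of these proteins have counterparts in bacteria and others are found only in mitochondria. Doxycycline is a tetracycline antibiotic that binds the small subunit of bacterial ribosomes, and it also inhibits translation by mitochondrial ribosomes.

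Each library held 9937504 to 17188295 counts. Pkd2 was lower in all 8 libraries with DOX than in all 8 without it: its log2 fold change with DOX was -1.71 (SE 0.078) at passage 7 and -1.41 (SE 0.078) at passage 4 (exact 2-sided permutation test of CPM, p = 0.0286 at each passage, the smallest that 4 against 4 allows). In each group, replicates 1 and 2 resembled each other, as did replicates 3 and 4, more than the pairs resembled one another. Of 8 epithelial markers all were tested and 5 fell with DOX averaged over the passages, but keratins 8 and 18, Cdh1, Epcam and Pax8 stayed abundant in every group. Of 10 principal cell markers only 5 were abundant enough to test, and the defining water channel gene Aqp2 had no count in any library. Of those 5, 3 fell with DOX (Scnn1b, Scnn1g and Hsd11b2) and Scnn1a rose. CPM are counts scaled by library size, in parts per 1e6. The 8 epithelial markers summed to 4302 to 4763 CPM at passage 7 with DOX and 5300 to 5801 CPM without it. At passage 4 they summed to 3642 to 3858 CPM with DOX and 4828 to 4963 CPM without it. This sum was thus lower with DOX at both passages, with no overlap. The summed level of the 10 principal cell markers was 189 to 233 CPM at passage 7 with DOX and 161 to 188 CPM without it. At passage 4 the principal cell sum was 137 to 171 CPM with DOX and 104 to 144 CPM without it. The summed lists of 5 intercalated cell and 4 proximal tubule markers reached at most 29.0 CPM and 12.7 CPM in any library. Of 4 stroma markers 2 were tested at low levels, and 1, Dcn, rose by 1.34 (adjusted p = 0.00025). The summed stroma list was at 3.68 to 6.52 CPM at passage 7 with DOX and 2.49 to 3.72 CPM without it. At passage 4 the stroma sum was 1.21 to 1.88 CPM with DOX and 0.732 to 1.26 CPM without it. Of 4 leukocyte markers 3 were tested and all 3, Ptprc, Cd68 and Csf1r, fell with DOX. The summed level of the 4 was 36.1 to 43.7 CPM at passage 7 with DOX and 67.1 to 75.2 without it, and 20.1 to 35.5 CPM at passage 4 with DOX and 39.0 to 46.9 without it, with Cd3e at or near 0. The part of these markers in the results below was not tested. In bulk RNA, fewer cells of a type and less RNA per cell cannot be told apart.

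The mitochondrial ribosomal protein genes were expressed at moderate levels. Of the 78, 77 passed the filter on low counts, with a mean of 8.56 to 76.2 CPM over the 16 libraries (median 32.6). Per kilobase of annotated exon their median level was 13.1 CPM, against 6.39 for all 15316 tested genes, 48.7 for the nuclear-encoded genes of the respiratory chain and 172 for the ribosomal protein genes of the cytosol. The large subunit had a median of 14.1 CPM per kilobase and the small subunit 10.2. The highest levels per kilobase were those of Mrpl34 (47.4), Mrps21 (42.7) and Mrpl54 (36.7), and the lowest of tested members those of Mrpl23 (2.34), Mrps35 (3.33) and Mrpl48 (3.68). These values divide by all annotated exon bases, also those that cells may not use.

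Mrpl53, a mitochondria-specific protein at the base of the stalk of the large subunit, had 0 counts in every library and was not tested. A count of 0 allows up to 3 counts, which is 0.175 CPM in the deepest library and 0.302 CPM in the shallowest one (counting error only). Of its exon bases 695 lie within those of Gm42688 on the same strand, and that gene had 8 to 29 counts per library, so reads of the 2 genes could not be separated. In all, 33 members share exon bases with another annotated gene, 8 of them on the same strand. Among members whose values are given below, Mrps34 shares 763 bases with Nme3 on its own strand and 1309 with Mapk8ip3 on the other. The rest are on the opposite strand. Mrps25 shares 4590 bases with Nr2c2, Mrpl48 shares 708 with Rab6a and Mrps18b shares 638 with Gm16279. Mrps30 shares 623 with B430218F22Rik, Mrpl24 shares 594 with Rrnad1 and Mrpl43 shares 507 with Twnk. Mrpl13 shares 330 with Mtbp, Mrpl12 shares 200 with Gm16755, Mrpl9 shares 157 with Oaz3 and Mrpl44 shares 126 with Wdfy1. Mrpl36 shares 30 with Ndufs6 and Mrps26 shares 8 with 4930473A02Rik. Whether counting used strand is not stated, so these levels are less certain.

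Promoter windows, 250 bases before to 50 after the start of a gene, were given by RefSeq (GRCm38.p6) for 69 of the 78 members, not for Mrpl4, Mrpl13, Mrpl15, Mrpl19, Mrpl38, Mrpl54, Mrps28, Mrps34 and Mrps35. They were searched on both strands for letters of 4 factors: the NRF1 palindrome and CCGGAAG for the ETS factor GABPA, both activators of nuclear genes for mitochondrial proteins, AAGATGGC for YY1, and TGATGNAA for the element bound by ATF4. NRF1 letters stood in 13 of the 69 (18.8%), in 5.19% of all 27025 genes with a window and in 10.98% of the 10653 of them that were tested. ETS letters stood in 26 members (37.7%), in 9.93% of all genes and in 19.6% of tested genes. YY1 letters stood in 12 members (17.4%), in 3.19% of all genes and in 5.11% of tested genes. At least 1 of these 3 was in 43 of the 69 windows (62.3%), against 31.4% of tested genes. ATF4 letters were in 0 of the 69, against 4.51% of all genes and 2.69% of tested genes. A match is a run of letters and not a measured binding site.

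The windows of 5 members that the results return to show the range. Mrps17 (chr5:129715247-129715546, plus strand), the member with the largest response to DOX, and Mrpl50 (chr4:49521034-49521333, minus strand), a member that fell, hold none of the 4 runs of letters. Mrps26 (chr2:130563507-130563806, plus strand) holds an ETS match and 2 NRF1 matches that overlap each other. Mrpl45 (chr11:97315466-97315765, plus strand) holds 3 separate NRF1 matches, and Mrpl17 (chr7:105811038-105811337, minus strand) an ETS and an NRF1 match. The capitals mark the matches, and each sequence runs 5′ to 3′ on the strand of its gene.
Mrps17: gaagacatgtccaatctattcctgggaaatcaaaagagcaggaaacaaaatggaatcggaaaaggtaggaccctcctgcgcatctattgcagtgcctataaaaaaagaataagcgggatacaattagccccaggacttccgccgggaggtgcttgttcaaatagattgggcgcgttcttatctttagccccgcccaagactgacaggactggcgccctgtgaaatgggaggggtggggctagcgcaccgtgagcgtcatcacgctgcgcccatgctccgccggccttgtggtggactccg
Mrps26: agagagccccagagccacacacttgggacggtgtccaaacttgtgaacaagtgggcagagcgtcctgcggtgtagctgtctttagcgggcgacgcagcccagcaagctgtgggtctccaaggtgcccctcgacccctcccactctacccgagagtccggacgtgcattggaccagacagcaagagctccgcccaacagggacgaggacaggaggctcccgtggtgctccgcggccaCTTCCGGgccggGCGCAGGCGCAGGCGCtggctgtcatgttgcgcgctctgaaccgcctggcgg
Mrpl45: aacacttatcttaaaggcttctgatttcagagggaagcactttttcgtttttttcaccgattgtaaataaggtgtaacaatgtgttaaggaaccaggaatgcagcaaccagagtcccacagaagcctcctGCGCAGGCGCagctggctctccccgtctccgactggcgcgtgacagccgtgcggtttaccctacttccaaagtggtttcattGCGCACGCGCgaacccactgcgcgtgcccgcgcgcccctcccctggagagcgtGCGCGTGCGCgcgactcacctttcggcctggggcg
Mrpl17: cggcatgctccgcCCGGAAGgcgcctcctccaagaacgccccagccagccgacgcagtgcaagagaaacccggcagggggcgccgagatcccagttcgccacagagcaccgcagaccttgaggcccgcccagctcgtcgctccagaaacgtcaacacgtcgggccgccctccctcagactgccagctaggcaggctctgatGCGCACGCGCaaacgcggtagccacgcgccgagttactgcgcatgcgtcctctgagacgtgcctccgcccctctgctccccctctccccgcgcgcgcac
Mrpl50: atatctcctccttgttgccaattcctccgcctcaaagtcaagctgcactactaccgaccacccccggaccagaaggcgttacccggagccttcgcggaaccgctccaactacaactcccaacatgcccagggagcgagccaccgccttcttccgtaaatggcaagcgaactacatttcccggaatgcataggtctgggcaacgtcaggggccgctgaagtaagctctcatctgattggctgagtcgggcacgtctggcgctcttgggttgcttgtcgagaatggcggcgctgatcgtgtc

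The start of another protein-coding gene on the opposite strand, pointing away, lay within 1000 bases upstream of 18 of the 78 members (23.1%), against 1296 of 12590 tested protein-coding genes (10.3%). The closest was that of Mrpl54, 26 bases from the start of Apba3. Of members named below, Mrpl50 starts 83 bases from Zfp189, Mrpl37 starts 120 bases from Cyb5rl and Mrps34 starts 29 bases from Eme2. Mrps18b starts 45 bases from Ppp1r10 and Mrpl40 starts 175 bases from Hira.

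Of the members whose values follow, Mrps17 (ENSMUSG00000034211) spans chr5:129715497-129722556 on the plus strand, Mrps26 (ENSMUSG00000037740) spans chr2:130563742-130568695 on the plus strand, Mrpl28 (ENSMUSG00000024181) spans chr17:26123500-26126613 on the plus strand and Mrpl50 (ENSMUSG00000044018) spans chr4:49512596-49521093 on the minus strand (GRCm38).

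At passage 7, mitochondrial ribosomal protein genes of both subunits were higher with DOX. In edgeR's quasi-likelihood fit, with Benjamini-Hochberg adjustment over all tested genes, 14 of the 77 tested members rose (18.2%) and 0 fell, against 11.1% of all tested genes that rose and 11.6% that fell. At an unadjusted p under 0.05, 31 members were higher (40.3%) and 0 lower, against 16.2% and 17.2% of all tested genes. The changes were small. The median log2 fold change of the members was 0.16, which is 11.8%, with 63 of 77 above 0, and that of all tested genes was -0.0078. The 14 were 9 of the 50 tested members of the large subunit and 5 of the 26 of the small one.

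Mrps17 encodes the counterpart of the bacterial ribosomal RNA-binding protein S17, in the small subunit. At passage 7 it was at 80.2, 74.7, 86.9 and 83.1 CPM with DOX and at 58.1, 60.3, 60.1 and 56.3 CPM without it. Every library with DOX was above every one without it, and the log2 fold change was 0.47 (SE 0.055, adjusted p = 5.6e-06, edgeR's quasi-likelihood test). Its response was the largest of the members at passage 7, at 0.54 in replicates 3 and 4 and 0.39 in replicates 1 and 2.

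Mrps26, a mitochondria-specific protein of the small subunit whose promoter window is shown above, was at 36.1, 34.1, 45.4 and 40.6 CPM with DOX and at 26.6, 30.1, 30.7 and 29.6 CPM without it. The groups did not overlap, and replicates 3 and 4 with DOX were the highest. The log2 fold change was 0.42 (SE 0.095, adjusted p = 0.0034, edgeR's quasi-likelihood test). Mrps35, another mitochondria-specific small-subunit protein, was at 33.4, 30.7, 36.8 and 36.9 CPM with DOX and at 27.6, 26.5, 28.3 and 27.5 CPM without it, again with no overlap, and rose by 0.33 (adjusted p = 0.0060). Mrps16, the counterpart of the bacterial small-subunit protein S16, was at 24.0, 21.6, 24.8 and 22.8 CPM with DOX and at 17.1, 20.8, 18.4 and 18.6 CPM without it. It rose by 0.32 (adjusted p = 0.011), and its groups did not overlap.

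In the large subunit, Mrpl13, the counterpart of bacterial L13, had the smallest adjusted p at passage 7, though not the largest change. It was at 62.5, 67.2, 75.6 and 71.0 CPM with DOX and at 54.9, 55.3, 61.0 and 52.1 CPM without it. The lowest library with DOX was just above the highest without it, and the log2 fold change was 0.31 (SE 0.079, adjusted p = 0.0079). Mrpl44, a mitochondria-specific protein with a ribonuclease III fold near the exit tunnel, rose by 0.30 (adjusted p = 0.021). Mrpl20, the counterpart of bacterial L20, rose by 0.28 (adjusted p = 0.023). Mrpl45 lies at the tunnel exit, where the ribosome meets the inner membrane. It was at 56.6, 61.4, 60.1 and 56.8 CPM with DOX and at 52.7, 51.8, 52.7 and 49.7 CPM without it, with no overlap, and rose by 0.18 (SE 0.058, adjusted p = 0.028).

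The remaining 6 that rose at passage 7 were Mrpl12, Mrpl36, Mrpl42, Mrpl52, Mrps18a and Mrps31, at log2 fold changes of 0.19 to 0.39. In all, 13 members had every library with DOX above every one without it (12.4% of all tested genes did), and 0 had every one below (12.8% of all genes). With replicate number as a block, 30 members rose and 0 fell, against 15.3% and 16.5% of all tested genes. The count of 14 was 6 without replicate 3 and 7 without replicate 4 of the DOX libraries, and 7 without replicate 1 and 9 without replicate 4 of those without DOX. Mrps17, Mrps26, Mrps35, Mrpl13 and Mrps16 passed whichever library was left out.

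**Figure D1:**
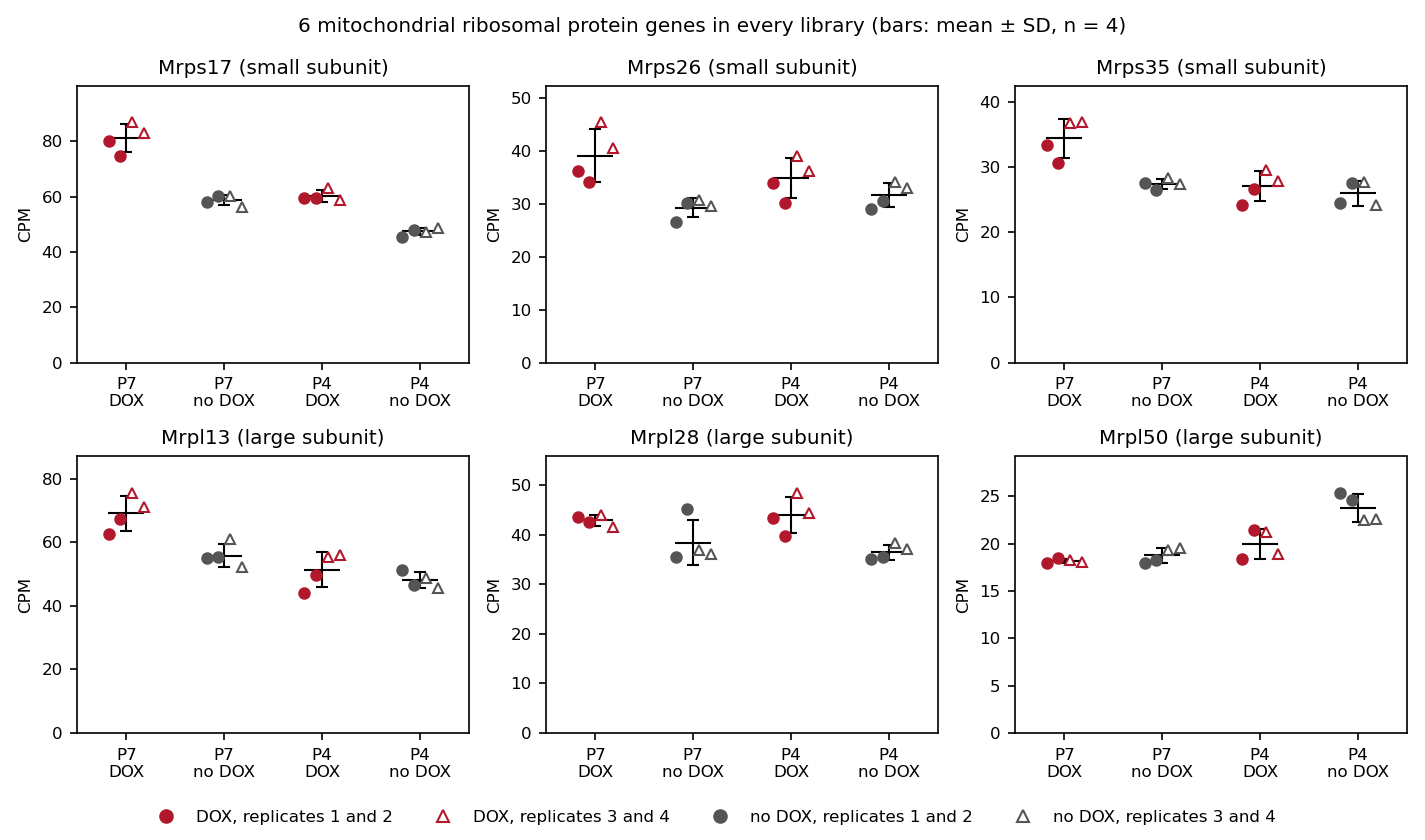
CPM of 6 mitochondrial ribosomal protein genes in each of the 16 libraries (points, filled circles for replicates 1 and 2, open triangles for replicates 3 and 4), with the mean ± SD of each group of 4, at passage 7 (P7) and passage 4 (P4). Mrps17 is separated by DOX at both passages, Mrps26, Mrps35 and Mrpl13 at passage 7, and Mrpl28 and Mrpl50 at passage 4, where Mrpl50 is lower with DOX.

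At passage 4, Mrps17, Mrpl28 and Mrps34 rose with DOX and Mrpl50 fell. Thus 3 of 77 rose (3.90%) and 1 fell (1.30%), against 8.45% and 9.10% of all tested genes. At an unadjusted p under 0.05, 9 were higher (11.7%) and 3 lower (3.90%), against 14.3% and 15.2% of all tested genes, so at either threshold the share that was higher lay below that of all genes. The median log2 fold change was 0.079, with 57 of 77 above 0, against a median of 0.00059 for all tested genes. Of the large subunit 1 rose and 1 fell, and of the small subunit 2 rose and 0 fell.

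Mrps17 was again the member with the largest response. It was at 59.3, 59.6, 63.3 and 58.6 CPM with DOX and at 45.4, 48.0, 47.3 and 48.8 CPM without it, with no overlap, and rose by 0.35 (SE 0.056, adjusted p = 0.00021, edgeR's quasi-likelihood test). It was the only member that rose at both passages (5.05% of all tested genes did), and 0 fell at both (6.08% of all tested genes). It was also the only one whose libraries did not overlap upwards at both passages (5.32% of all tested genes), and 0 did so downwards (5.86%).

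Mrpl28, the counterpart of bacterial L28 in the large subunit, was at 43.4, 39.7, 48.5 and 44.4 CPM with DOX and at 35.1, 35.4, 38.3 and 37.1 CPM without it. The groups did not overlap, and the log2 fold change was 0.27 (SE 0.078, adjusted p = 0.022). Mrps34, a mitochondria-specific protein of the small subunit that is mutated in a form of Leigh syndrome in humans, was at 46.8, 47.3, 46.4 and 48.3 CPM with DOX and at 32.9, 43.1, 41.9 and 40.2 CPM without it. It rose by 0.25 and lay just inside the threshold with no overlap of the groups (adjusted p = 0.0495), with the caution of its shared exon bases.

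Mrpl50, a mitochondria-specific protein of the large subunit, was the only member that fell at passage 4. It was at 18.4, 21.4, 21.2 and 18.9 CPM with DOX and at 25.4, 24.5, 22.4 and 22.6 CPM without it, with no overlap, and fell by 0.25 (log2; SE 0.075, adjusted p = 0.028). At passage 7 it averaged 18.2 ± 0.229 CPM with DOX and 18.8 ± 0.789 CPM without it (SD, n = 4 each), and the groups overlapped.

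With the replicate block, 7 members rose and 3 fell at passage 4, against 13.3% and 14.0% of all tested genes. The count that rose was 1 without replicate 3 of the DOX libraries or replicate 1 of those without it. The call of Mrpl50 was lost without replicate 1 or replicate 4 with DOX, or replicate 1 or 2 without it (0 fell in each), and 2 fell without replicate 3 of passage 7 without DOX. Only Mrps17 passed whichever library was left out. The groups did not overlap for 7 members upwards (10.3% of all tested genes) and for 3 downwards (11.0%).

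Between passages, no member's response to DOX differed by edgeR's quasi-likelihood test of the difference itself: 0 of 77 were higher or lower, against 0.516% and 0.679% of all tested genes, and 0 were with the replicate block, against 1.87% and 2.79%. At an unadjusted p under 0.05, 2 were higher at passage 7 (2.60%) and 0 lower, against 5.36% and 6.18% of all tested genes, and the smallest adjusted p was 0.35, that of Mrps35 (difference 0.27, SE 0.11). The median difference of log2 fold changes was 0.096, with 61 of 77 above 0, against a median of -0.00096 for all tested genes.

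**Figure D2:**
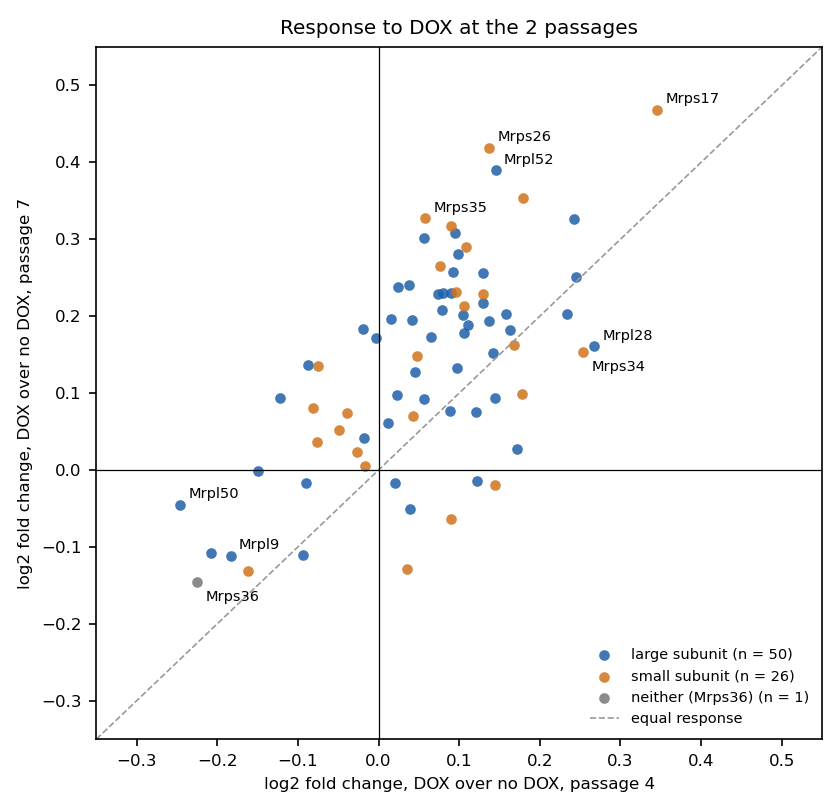
Log2 fold change with DOX at passage 7 (vertical) and at passage 4 (horizontal) of the 77 tested mitochondrial ribosomal protein genes, coloured by subunit, with the line of equal response dashed. Most points lie right of 0 and above 0, with Mrps17 at the top right and Mrpl50, Mrpl9 and Mrps36 at the lower left.

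Averaged over the passages, DOX was accompanied by a small rise that spread over both subunits. Of 77 members 25 rose (32.5%) and 2 fell (2.60%), against 15.7% and 16.6% of all tested genes. The median log2 fold change was 0.12, which is 8.56%, with a range of -0.19 to 0.41 and 62 of 77 above 0, against a median of -0.0031 for all tested genes. The large subunit had 16 that rose and 2 that fell of 50, and the small subunit 9 and 0 of 26. Their medians were 0.12 each. By symbol in place of position, 15 of 48 Mrpl genes and 10 of 29 Mrps genes rose, with medians of 0.12 and 0.098.

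Besides those already named, Mrpl17, a counterpart of bacterial L17 whose window is shown above, was at 45.1, 40.6, 51.2 and 43.9 CPM at passage 7 with DOX and at 35.5, 39.3, 43.7 and 38.6 CPM without it. At passage 4 it was at 44.6, 44.0, 53.0 and 48.4 CPM with DOX and at 39.8, 42.2, 42.7 and 36.6 CPM without it. The groups overlapped at passage 7 and not at passage 4, and the averaged log2 fold change was 0.22 (SE 0.060, adjusted p = 0.0087, edgeR's quasi-likelihood test).

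Mrpl12 encodes the stalk protein to which translation factors are recruited and is also known to bind the mitochondrial RNA polymerase. It was at 59.4, 55.3, 65.8 and 61.8 CPM at passage 7 with DOX and at 47.6, 53.4, 53.5 and 54.1 CPM without it. At passage 4 it was at 54.4, 56.3, 60.8 and 54.6 CPM with DOX and at 46.8, 51.2, 53.5 and 54.9 CPM without it. Only the passage 7 groups were apart, and the averaged log2 fold change was 0.17 (SE 0.049, adjusted p = 0.0099).

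The strongest averaged responses were those of Mrps17 (0.41, SE 0.039, adjusted p = 2.2e-07), Mrpl23 (0.28, SE 0.12, adjusted p = 0.080, not past the threshold, and 0.0052 with the replicate block), Mrps26 (0.28, adjusted p = 0.0035), Mrpl52 (0.27, adjusted p = 0.039), Mrps28 (0.27, adjusted p = 0.031) and Mrpl54 (0.25, adjusted p = 0.014). Mrpl23, a counterpart of bacterial L23 at the tunnel exit, and Mrpl52 also differed between replicates, being higher in replicates 3 and 4 by 0.41 and 0.30. Mrps18a, which sits in the large subunit, rose by 0.17 (adjusted p = 0.036). Mrps30, also of the large subunit, was at 0.083 (adjusted p = 0.17). Mrps36 was the lowest of all at -0.19 (SE 0.097, adjusted p = 0.16).

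Besides Mrpl50 (-0.15, adjusted p = 0.044), the member that fell was Mrpl9, the counterpart of bacterial L9. It was at 73.5, 73.4, 81.9 and 79.5 CPM at passage 7 with DOX and at 79.4, 77.6, 95.3 and 80.9 CPM without it. At passage 4 it was at 65.9, 68.6, 71.7 and 64.7 CPM with DOX and at 74.5, 73.3, 83.3 and 76.4 CPM without it. The passage 4 groups did not overlap and those of passage 7 did, and Mrpl9 fell by 0.15 (SE 0.048, adjusted p = 0.025).

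Of the 25 that rose, 12 passed whichever library was left out. All 25 had a positive fold change both in replicates 1 and 2 and in replicates 3 and 4. These are the libraries that gave the calls, so the shared sign is no separate support for them. With the block 34 rose, all 25 among them, and 4 fell, against 20.2% and 21.7% of all tested genes. The count of 25 was 12 without replicate 3 of passage 4 with DOX, 15 without replicate 3 and 14 without replicate 4 of passage 7 with DOX, and 14 without replicate 1 of passage 7 without DOX. Neither Mrpl50 nor Mrpl9 passed whichever library was left out. The count of 2 that fell was 0 without passage 7 replicate 2 with DOX, passage 7 replicate 3 without DOX or passage 4 replicate 4 with DOX, and 3 without passage 7 replicate 1 without DOX. It was 1 without replicate 1, 3 or 4 of passage 7 with DOX, replicate 2 or 4 of passage 7 without DOX, replicate 1 of passage 4 with DOX, or replicate 1, 2 or 3 of passage 4 without DOX.

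**Figure D3:**
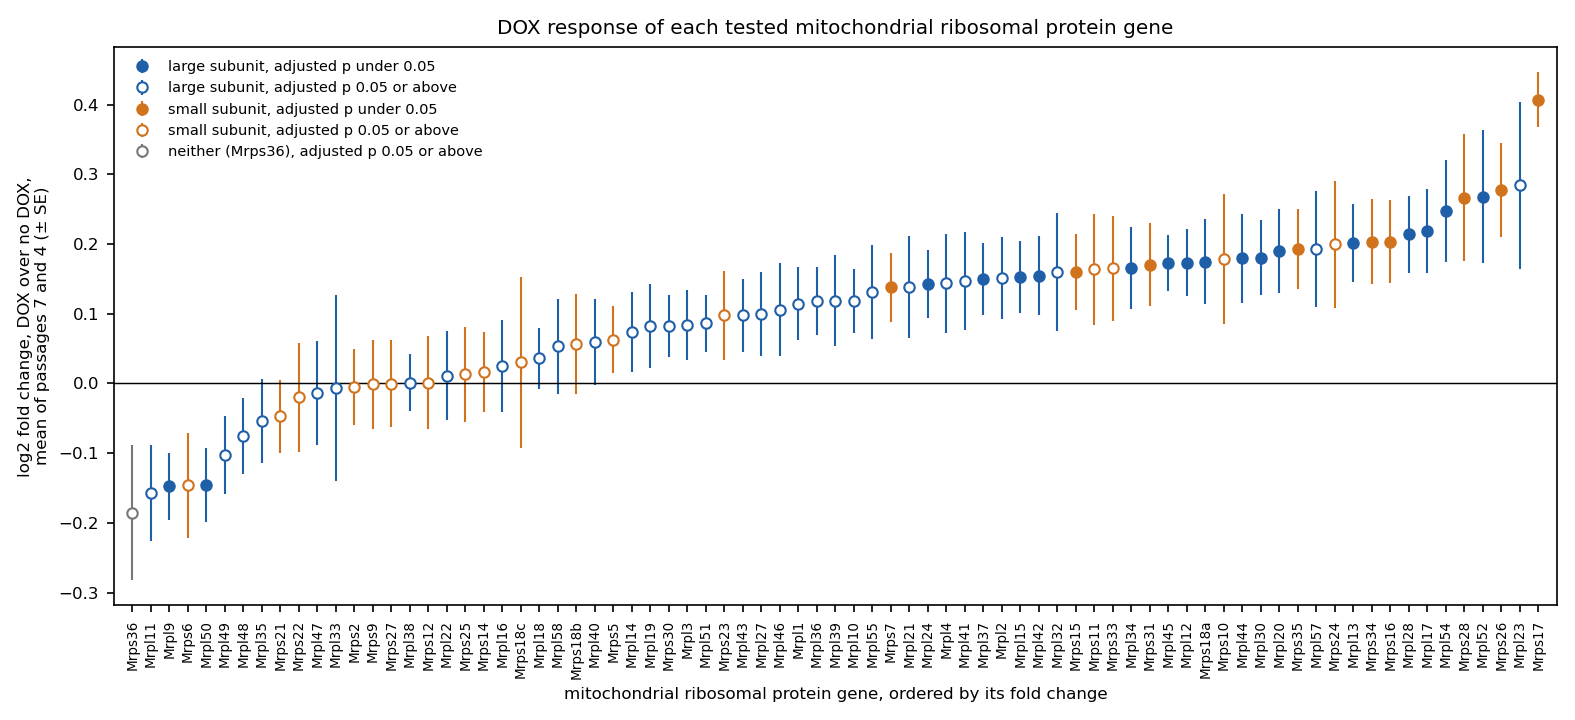
Log2 fold change with DOX averaged over both passages (± SE) of each of the 77 tested mitochondrial ribosomal protein genes, ordered by value and coloured by subunit, with filled points for adjusted p under 0.05. The 2 subunits are interleaved along the order, 25 filled points lie above 0 and 2 below, and Mrps17 stands at the top at 0.41.

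For the groups that follow, 15.7% of all tested genes rose and 16.6% fell. By descent, 14 of 46 tested members with a bacterial counterpart rose with DOX averaged over the passages and 1 fell (median 0.12), and 11 of 30 mitochondria-specific ones rose and 1 fell (median 0.11). Grouped by place in the large subunit, 4 of 8 around the exit tunnel rose (Mrpl17, Mrpl24, Mrpl44 and Mrpl45) and 0 fell, with a median of 0.16. Of the 4 tested at the stalk 2 rose, Mrpl12 and Mrpl54, and 0 fell, with a median of 0.15. Mrpl11, the counterpart of bacterial L11 at the stalk base, was at -0.16 (adjusted p = 0.090, and 0.021 with the replicate block), and at passage 4 each of its libraries with DOX was below each one without it. Of 8 in the central protuberance, where the large subunit faces the head of the small one, 0 rose or fell by edgeR, with 0 also at an unadjusted p under 0.05 and 0 with the replicate block, and the median was 0.057. At the shares of all tested genes, a group of 8 would hold few calls, and these groups of 4 to 8 genes were not tested against each other.

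Summed over the tested members, the large subunit was at 1917, 1844, 2109 and 2050 CPM at passage 7 with DOX and at 1682, 1793, 1909 and 1849 CPM without it. At passage 4 it was at 1809, 1819, 2052 and 1929 CPM with DOX and at 1816, 1812, 1859 and 1810 CPM without it. The groups overlapped at both passages, and in each of them the highest library was replicate 3. The small subunit averaged 835 ± 60.0 CPM with DOX and 755 ± 37.8 CPM without it at passage 7, and 820 ± 36.8 CPM with DOX and 774 ± 25.4 CPM without it at passage 4 (SD, n = 4 each). The ratio of the large to the small sum was 2.37 ± 0.031 with DOX and 2.39 ± 0.020 without it at passage 7, and 2.32 ± 0.055 with DOX and 2.36 ± 0.067 without it at passage 4. The ratios of the groups overlapped at both passages. Within replicate numbers, the large sum was higher with DOX for 4 of 4 at passage 7 and 3 of 4 at passage 4, and the small sum for 4 of 4 at each passage. The ratio was higher with DOX for 1 of 4 numbers at passage 7 and 2 of 4 at passage 4.

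**Figure D4:**
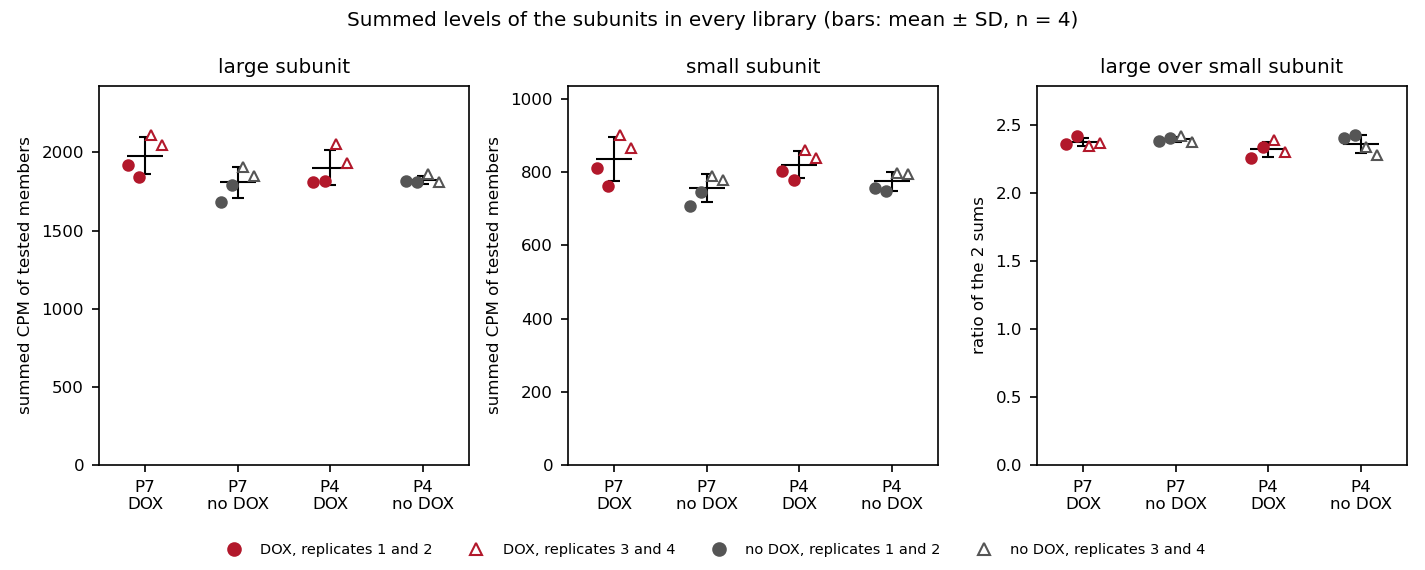
Summed CPM of the tested members of the large and of the small subunit, and the ratio of the 2 sums, in each of the 16 libraries (points), with the mean ± SD of each group of 4 at passage 7 (P7) and passage 4 (P4). All ratios lie between 2.26 and 2.42.

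Members differed between replicates within groups as well. With group held constant, replicates 3 and 4 exceeded replicates 1 and 2 for 29 of 77 and fell short of them for 2, Mrpl48 and Mrps25 (17.5% and 19.5% of all tested genes), with a median log2 difference of 0.11. Each group held both pairs of replicates. The median response to DOX was 0.16 in replicates 3 and 4 and 0.13 in replicates 1 and 2 at passage 7, and 0.12 in replicates 3 and 4 and 0.030 in replicates 1 and 2 at passage 4. Within groups, members varied by a median SD of 0.11 on the log2 scale, against 0.14 for all tested genes.

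Set beside other genes of the same processes, the median response of the members lay below that of the cytosolic ribosome. Of 81 tested ribosomal protein genes of the cytosol, 73 rose (90.1%) and 0 fell at passage 7 (median 0.44), and 39 rose (48.1%) and 0 fell at passage 4 (median 0.24). Of 79 tested nuclear-encoded respiratory chain genes, 11 rose (13.9%) and 2 fell (2.53%) at passage 7, against 11.1% and 11.6% of all tested genes, and 4 rose (5.06%) and 2 fell (2.53%) at passage 4, against 8.45% and 9.10%. Their medians were 0.076 at passage 7 and 0.037 at passage 4. With the replicate block, 22 respiratory chain genes rose and 4 fell at passage 7, against 15.3% and 16.5% of all tested genes. With the block at passage 4, 15 respiratory chain genes rose and 2 fell, and 65 cytosolic ones rose. Of all tested genes 13.3% rose and 14.0% fell in that comparison. The medians were not tested against each other.

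**Figure D5:**
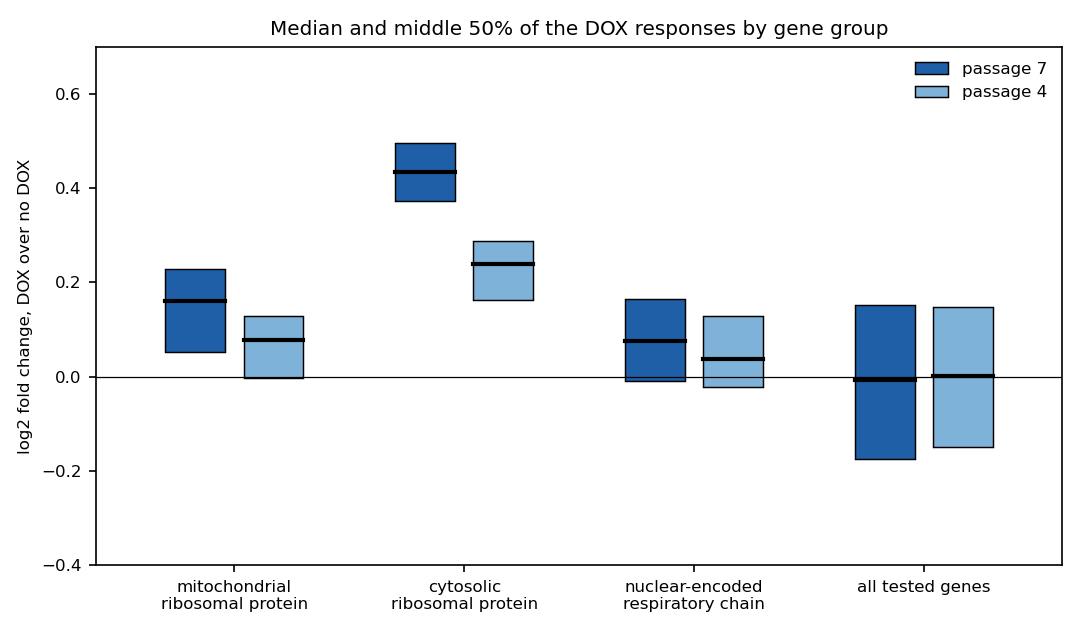
Median (thick line) and middle 50% (box) of the log2 fold changes with DOX at passage 7 (dark) and passage 4 (light), for the tested genes of the mitochondrial ribosome, the cytosolic ribosome, the nuclear-encoded respiratory chain and for all tested genes. The medians of the mitochondrial ribosomal protein genes were 0.16 at passage 7 and 0.079 at passage 4, those of the cytosolic ones 0.44 and 0.24.

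Of 5 mitochondrial ribosomal proteins with other symbols, 3 rose with DOX averaged over the passages and 0 fell, against 15.7% and 16.6% of all tested genes. Aurkaip1, a late addition to the small subunit, rose by 0.37 at passage 7 (adjusted p = 0.0039) and by 0.26 at passage 4 (adjusted p = 0.042). It was at 60.2, 55.9, 67.7 and 61.4 CPM at passage 7 with DOX and at 43.2, 47.1, 49.5 and 50.1 CPM without it. At passage 4 it was at 52.3, 49.3, 66.9 and 56.8 CPM with DOX and at 43.4, 47.7, 47.7 and 48.8 CPM without it, and the groups did not overlap at either passage. Gadd45gip1, of the large subunit, rose by 0.27 at passage 7 (adjusted p = 0.0060) and by 0.21 at passage 4 (adjusted p = 0.035). Dap3, a GTP-binding protein of the small subunit, passed only for the average (0.098, adjusted p = 0.0499), and that call was lost in 16 of 24 alternatives. With the replicate block all 5 passed, while without it Chchd1 (0.18, adjusted p = 0.051) and Ptcd3 (0.10, adjusted p = 0.11) did not.

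Of 29 factors that assemble the mitochondrial ribosome or modify its RNA, 5 rose (17.2%) and 2 fell (6.90%) with DOX on average, with a median of 0.10. The share that rose was close to the 15.7% of all tested genes. With the replicate block 8 rose, against 20.2% of all tested genes. Mterf4, which brings a methyltransferase to the large subunit, rose by 0.44 (SE 0.10, adjusted p = 0.0029). Mrm1, a 2'-O-methyltransferase of the 16S ribosomal RNA, rose by 0.35 (adjusted p = 0.0026). Malsu1, which keeps immature large subunits from joining small ones, rose by 0.32 (adjusted p = 0.00090), and the matrix protein gene C1qbp rose by 0.22 (adjusted p = 0.013). The 2 that fell were the RNA helicase gene Dhx30 (-0.13, adjusted p = 0.020) and the protease gene Spg7 (-0.12, adjusted p = 0.030).

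Of 16 translation factors and mRNA-binding proteins of mitochondria, 4 rose and 0 fell, against 15.7% and 16.6% of all tested genes, with a median of 0.11: Mtif3, an initiation factor (0.29, adjusted p = 0.00076), Mtrf1l, a release factor (0.32, adjusted p = 0.011), Lrpprc, which stabilises mitochondrial mRNA (0.15, adjusted p = 0.011), and Tsfm, an elongation factor (0.17, adjusted p = 0.029). Of 17 genes for mitochondrial transcription and its regulators, 2 rose (11.8%) and 0 fell, with a median of 0.13. With the replicate block 5 rose, against 20.2% of all tested genes. Without the block, the share that rose lay below the 15.7% of all tested genes. At passage 7 by itself 0 rose and 0 fell, against 11.1% and 11.6% of all tested genes. At an unadjusted p under 0.05, 1 was higher and 0 lower there, against 16.2% and 17.2% of all tested genes. At these shares a list of 17 genes would hold few calls. The 2 that rose on average were Tfam, which packs and transcribes mitochondrial DNA (0.21, adjusted p = 0.0018), and the DNA helicase gene Twnk (0.13, adjusted p = 0.019). The regulator genes Ppargc1a and Ppargc1b were at 0.43 and 0.50 on average and did not pass. Ppargc1a did rise at passage 4, with its values given further below. Counts of the ribosomal RNA partners in these poly(A)-selected libraries rose far more: mt-Rnr1, the 12S RNA of the small subunit, by 3.42 (SE 0.37) at passage 7 and by 3.57 (SE 0.37) at passage 4, and mt-Rnr2, the 16S RNA of the large subunit, by 2.19 (SE 0.34) at passage 7 and by 2.75 (SE 0.34) at passage 4. Whether this is more RNA or more of it with a tail was not tested.

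Between passages, members moved both ways. Without DOX, 3 of 77 rose at passage 7 over passage 4 (3.90%) and 8 fell (10.4%), against 14.3% and 11.3% of all tested genes, with a median of -0.073 (all genes -0.0068). With DOX, 7 rose (9.09%) and 4 fell (5.19%), against 18.3% and 15.8% of all tested genes, with a median of 0.033 (all genes -0.0081). At an unadjusted p under 0.05 5 were higher (6.49%) and 11 lower (14.3%) without DOX, against 19.4% and 17.5% of all tested genes, and 14 were higher (18.2%) and 6 lower (7.79%) with DOX, against 22.7% and 21.0%. Each of these shares lay below that of all genes.

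Mrps17 was higher at passage 7 in both states, by 0.31 (SE 0.056, adjusted p = 0.00054) without DOX and by 0.43 (SE 0.055, adjusted p = 9.2e-06) with it. Its 4 libraries of passage 7 with DOX, given above, were the highest of all 16. Mrpl40, a protein of the central protuberance, rose by 0.24 without DOX (adjusted p = 0.0499, just inside the threshold) and by 0.32 with it (adjusted p = 0.0086), at 37.4, 38.8, 45.0 and 43.4 CPM at passage 7 with DOX and 28.5, 31.6, 38.3 and 34.2 CPM at passage 4 with DOX, groups that overlapped.

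Mrpl13 and Mrps35, already named for their response at passage 7, rose between passages with DOX by 0.43 (adjusted p = 0.00039) and 0.35 (adjusted p = 0.0025). These comparisons share the 4 libraries of passage 7 with DOX. Without DOX the same genes were at 0.22 (adjusted p = 0.055) and 0.078 (adjusted p = 0.53). Mrpl16, the counterpart of bacterial L16, rose by 0.27 with DOX (adjusted p = 0.031), and Mrpl43, a mitochondria-specific protein, rose by 0.23 without it (adjusted p = 0.029).

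Mrpl35, the counterpart of bacterial L35, fell between passages by 0.38 without DOX (SE 0.085, adjusted p = 0.0028) and by 0.31 with it (SE 0.084, adjusted p = 0.0081). It was at 30.0, 32.3, 36.9 and 37.0 CPM at passage 7 without DOX and at 45.9, 43.0, 47.7 and 40.9 CPM at passage 4 without DOX. With DOX it was at 33.2, 29.2, 35.6 and 36.2 CPM at passage 7 and at 42.1, 39.5, 45.1 and 40.1 CPM at passage 4. The passages did not overlap in either state.

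Mrps18b, a mitochondria-specific protein of the small subunit, fell by 0.37 without DOX (adjusted p = 0.014) and by 0.34 with it (adjusted p = 0.015). Mrpl37 and Mrps30, a related pair of mitochondria-specific proteins in the large subunit, fell by 0.27 and 0.19 without DOX (adjusted p = 0.011 and 0.032) and by 0.19 and 0.20 with it (adjusted p = 0.048 and 0.018). Mrpl50 fell by 0.34 without DOX (adjusted p = 0.0031), while with DOX its change of -0.14 did not pass (adjusted p = 0.18).

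With the replicate block 5 rose and 11 fell without DOX, against 19.6% and 17.4% of all tested genes, and 17 rose and 5 fell with DOX, against 23.2% and 21.6%. Without DOX, the 3 that rose were 1 without passage 4 replicate 2 or passage 7 replicate 2 or 3, and the 8 that fell were 5 without passage 4 replicate 2 or 4 and 4 without passage 7 replicate 1. With DOX, the 7 that rose were 4 without passage 4 replicate 1 or 2 or passage 7 replicate 3 or 4 and 11 without passage 4 replicate 3, and the 4 that fell were 2 without passage 4 replicate 4.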

How the data were processed

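Poly(A)-selected RNA of 16 samples was sequenced. The deposited table holds raw read counts per gene for 55536 genes in 16 libraries, which the authors made after alignment with STAR 2.6.0c to mouse GRCm38.p6, per the submitters' processing notes. The counter, annotation release and strand setting are not given in the sources used here. The authors also deposited a TPM table. By values, 4 of its 16 columns fitted the counts under their own header and 12 those under a header of another group, while all 16 matched by position (lowest correlation 0.9996, next best at most 0.897, over 12204 genes), so TPM values were not used.

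Counts were fitted with edgeR 4.0.16 in R 4.3.3 (TMM scaling, filterByExpr, robust quasi-likelihood fit, 1 mean per group, all 16 libraries). The filter removed 40220 genes, 25677 of them with no count, and left 15316, over which p-values were adjusted by Benjamini-Hochberg with a threshold of 0.05. Every adjusted p printed is from that fit, save those given as with the replicate block. Each SE is the log2 fold change divided by the root of its F. CPM used TMM-scaled totals. The fit was tested on simulated counts, with 50 genes changed at each fold at passage 4. It recovered 22% of changes of 1.25-fold, 80% of 1.5-fold and 100% of 2-fold and 4-fold, with 5 false calls among 156. The simulated libraries had 1 common spread for all genes and no tie between replicates, and the changed genes had mean counts over 50. The real libraries differ in this, so these rates may not hold for them. The members' median changes were smaller than 1.25-fold, so a change left uncalled here may still be present.

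Replicates with the same number deviated together from their group means in every pair of groups (correlations 0.175 to 0.369). The number was used as a block in an alternative fit, and the main fit held no such term. This tie comes from the data, with no label that says so. Over all libraries of the same pair (1 and 2, or 3 and 4) in different groups, of the same number or not, correlations were 0.175 to 0.387. A shared number thus tied libraries no closer than a shared pair. Replicates 1 and 2, like 3 and 4, differed less (chi-square per degree of freedom 1.87 to 4.65) than replicates of different pairs (10.4 to 19.0).

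Members named were the 8 with the smallest adjusted p in each direction for DOX (5 for passage and for the difference), the 3 highest and 3 lowest levels, members whose subunit differs from their symbol and members that failed the filter. Of other lists, the 4 with the smallest adjusted p and the 5 ribosomal proteins with other symbols were named. Mrpl11, Mrpl24, Mrpl36, Mrpl42, Mrpl52, Mrps25, Mrps28, Mrps31, Dhx30, Spg7 and the gene pairs at shared starts were named after their values were seen. Members, lists, subunit places and tests were chosen with earlier results of these data known. Alternatives were DESeq2 1.42.0 (its test and its size factors), upper-quartile scaling, no filter, the replicate block, a term for the replicate pair, either pair alone, the 8 libraries compared alone, and each library left out.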

Additional observations from a re-analysis of the deposited data

Results flagged for a closer look

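In 208 groups of 4 libraries, 10 had 1 library set apart from the other 3 by more than Dixon's 95% critical value, as chance does in about 1 group in 20. With DOX at passage 7, Mrps34 had 1 low library at 39.0 CPM (others 44.7 to 45.6), Twnk 1 low library at 41.6 CPM (others 43.2 to 43.3) and Mrps18b 1 high library at 31.8 CPM (others 28.1 to 28.6). Without DOX at passage 7, Mrpl12 had 1 low library at 47.6 CPM (others 53.4 to 54.1), Mrpl28 1 high library at 45.2 CPM (others 35.5 to 36.9) and Twnk 1 high library at 41.4 CPM (others 38.7 to 39.1). With DOX at passage 4, Tsfm had 1 high library at 29.0 CPM (others 23.0 to 23.6). Without DOX at passage 4, Mrpl16 had 1 low library at 26.5 CPM (others 28.8 to 29.1), Mrps30 1 high library at 43.5 CPM (others 39.5 to 39.9), and the summed large subunit 1 high library at 1859 CPM (others 1810 to 1816).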

How the results depend on the processing

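With the replicate block, which pairs libraries of the same number, and with a term for the replicate pair, 30 members rose with DOX at passage 7 in each fit, and 7 rose and 3 fell at passage 4 in each. For the mean 4 fell in each. Between passages 5 rose without DOX and 17 with DOX in each, and 7 fell with DOX with the pair term. Every member called without the block was also called with it.

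In replicates 1 and 2 alone, 7 rose at passage 7, 7 rose and 0 fell for the mean, 1 differed between passages and 1 rose between passages without DOX. In replicates 3 and 4 alone, 25 rose at passage 7 and 10 at passage 4, and 7 without DOX and 11 with DOX rose between passages. Without the filter, 0 fell at passage 4, 0 fell for the mean, 1 rose between passages without DOX and 2 fell with DOX. In the 8 libraries compared alone, 0 fell at passage 4. For the mean, 1 fell with upper-quartile scaling and 1 with the DESeq2 test. By symbol, 2 small-subunit genes fell between passages with DOX.

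Leaving out each library, 6 to 20 members rose at passage 7, 1 to 3 rose and 0 to 2 fell at passage 4, and 12 to 29 rose and 0 to 3 fell for the mean. Between passages, 1 to 4 rose and 4 to 8 fell without DOX, and 4 to 11 rose and 2 to 6 fell with DOX. The cause of these shifts was not tested. For fits other than the main one and the replicate block, shares of all tested genes are not given here. In those fits a shift of the members cannot be told from a shift of the whole table.

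For 66 named genes and comparisons, 1414 of 1613 alternatives kept direction and side of the threshold, 172 lost the call, 25 gained one and 2 reversed: Chchd1 for the mean in replicates 1 and 2 alone (-0.012) and Mrps21 in replicates 3 and 4 alone (0.001). How depth bears on the calls of low members was not tested.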

Other observations

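Members whose promoter window holds NRF1 letters had a median averaged log2 fold change with DOX of 0.17 (13 tested, 6 rose), against 0.098 for those without (55 tested, 13 rose). With ETS letters the median was 0.086 (25 tested, 6 rose), against 0.12 without (43 tested, 13 rose), and with YY1 letters 0.14 (12 tested, 4 rose), against 0.099 without (56 tested, 15 rose). Of all tested genes 15.7% rose, and these splits by letters were not tested.

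Ppargc1a, a coactivator of mitochondrial biogenesis, rose with DOX at passage 4 by 0.87 (SE 0.23, adjusted p = 0.014). It was at 26.1, 34.6, 13.1 and 14.2 CPM with DOX and at 11.7, 12.8, 12.7 and 11.2 CPM without it. Replicates 1 and 2 with DOX were the high ones, and the log2 fold change was 1.32 in that pair and 0.19 in replicates 3 and 4. In the same passage the median response of the mitochondrial ribosomal protein genes was 0.030 in replicates 1 and 2 and 0.12 in replicates 3 and 4. Whether Ppargc1a bears on the response of these genes was not tested. At passage 7 Ppargc1a was at 9.87, 12.5, 11.9 and 10.7 CPM with DOX and at 11.8, 10.6, 11.6 and 11.2 CPM without it, with a log2 fold change of -0.0091 (adjusted p = 0.99). The difference between passages did not pass (adjusted p = 0.29).

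Among the 45 tested members that share no exon base with another gene, 18 rose and 1 fell with DOX averaged over the passages. Of all tested genes 15.7% rose and 16.6% fell. The median of the 45 was 0.15.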
